A study of Mus musculus with 12 samples.

Results

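The response of the left ventricle to infarction was examined in mice that carry a recombinase under the promoter of a gene of activated fibroblasts. Of the 12 RNA sequencing libraries of the series, 6 were used, 3 from Cre-positive hearts after myocardial infarction (MI) and 3 from Cre-positive hearts after sham surgery. They were chosen by their labels for genotype and surgery, and the 6 Cre-negative libraries served only to estimate the spread and for the comparison at the end. The infarct was made by permanently tying off the left anterior descending coronary artery, and ventricles were taken 4 days later from animals of 6 to 10 weeks. All 6 hearts, sham hearts included, came from mice with floxed Yap alleles and 1 copy of MerCreMer under the endogenous periostin (Postn) promoter, and all received tamoxifen citrate in the diet from right after surgery. Infarction and Yap recombination can therefore not be told apart within these 6 hearts, since no heart among them lacks the recombinase. The labels number the replicates 1 to 3 within each group and say no more about them, so p-values measure the spread between these samples, which may be partly technical.

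When a coronary artery is blocked, muscle cells in its territory die, and monocytes, neutrophils and the macrophages that follow clear the debris. Fibroblasts then divide, switch on periostin and contractile proteins and lay down collagen, which keeps the wall from rupturing, while surviving muscle cells turn down fat burning and return to parts of a fetal programme. YAP, the coactivator that the Hippo kinases restrain, works through TEAD factors on genes of growth and matrix. The Postn promoter is meant to restrict its removal here to cells that have become activated, which was not measured.

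Total expected counts, the estimated number of reads assigned to genes, were 13727200, 13609502 and 14132503 in MI replicates 1 to 3 and 13608483, 12220145 and 10679705 in sham replicates 1 to 3. Levels are given as CPM, reads scaled to a common library size after TMM normalization, and differences as log2 fold changes of MI over sham with the standard error (SE) of the edgeR quasi-likelihood model, n = 3 per group. Surgery separated the libraries along the leading principal component (74.0% of the variance). On the following component sham replicate 2 had a score of 57.8, while scores of the other 11 libraries ran from -21.4 to 14.7. Its level was unlike the other sham hearts at many genes: 610 lay at least 2-fold above and 867 lay at least 2-fold below the mean of the other sham libraries, which differed from each other by 2-fold at 551 genes. List counts are therefore given with and without it, and values of single genes where leaving it out changed a call or its size markedly. Y-linked genes reached 10 CPM in 1 of 3 MI libraries (replicate 1) and 0 of 3 sham libraries, and the part of sex in the results was not tested. In whole tissue, fewer cells of a type and less RNA per cell cannot be told apart.

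More genes rose than fell after infarction, and far more rose than fell by at least 2-fold. By edgeR's quasi-likelihood test with Benjamini-Hochberg adjustment (adjusted p under 0.05), 3514 of 13678 genes rose (25.7%) and 2665 fell (19.5%), 45.2% in either direction, and the median log2 fold change of all genes was 0.02. At least 2-fold, 2113 genes rose (15.4%) and 205 fell (1.5%). Without sham replicate 2, 3548 rose and 3055 fell among 13837 genes (25.6% and 22.1%, 47.7% in either direction), 2068 and 265 of them by at least 2-fold (14.9% and 1.92%). Of the rises called with all libraries 3122 were also called without that library, 88.8% of one set and 88.0% of the other, and of the falls 2410, 90.4% and 78.9%. The authors' deposited table listed 2800 genes higher and 2206 lower at an adjusted p under 0.05.

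**Figure D1:**
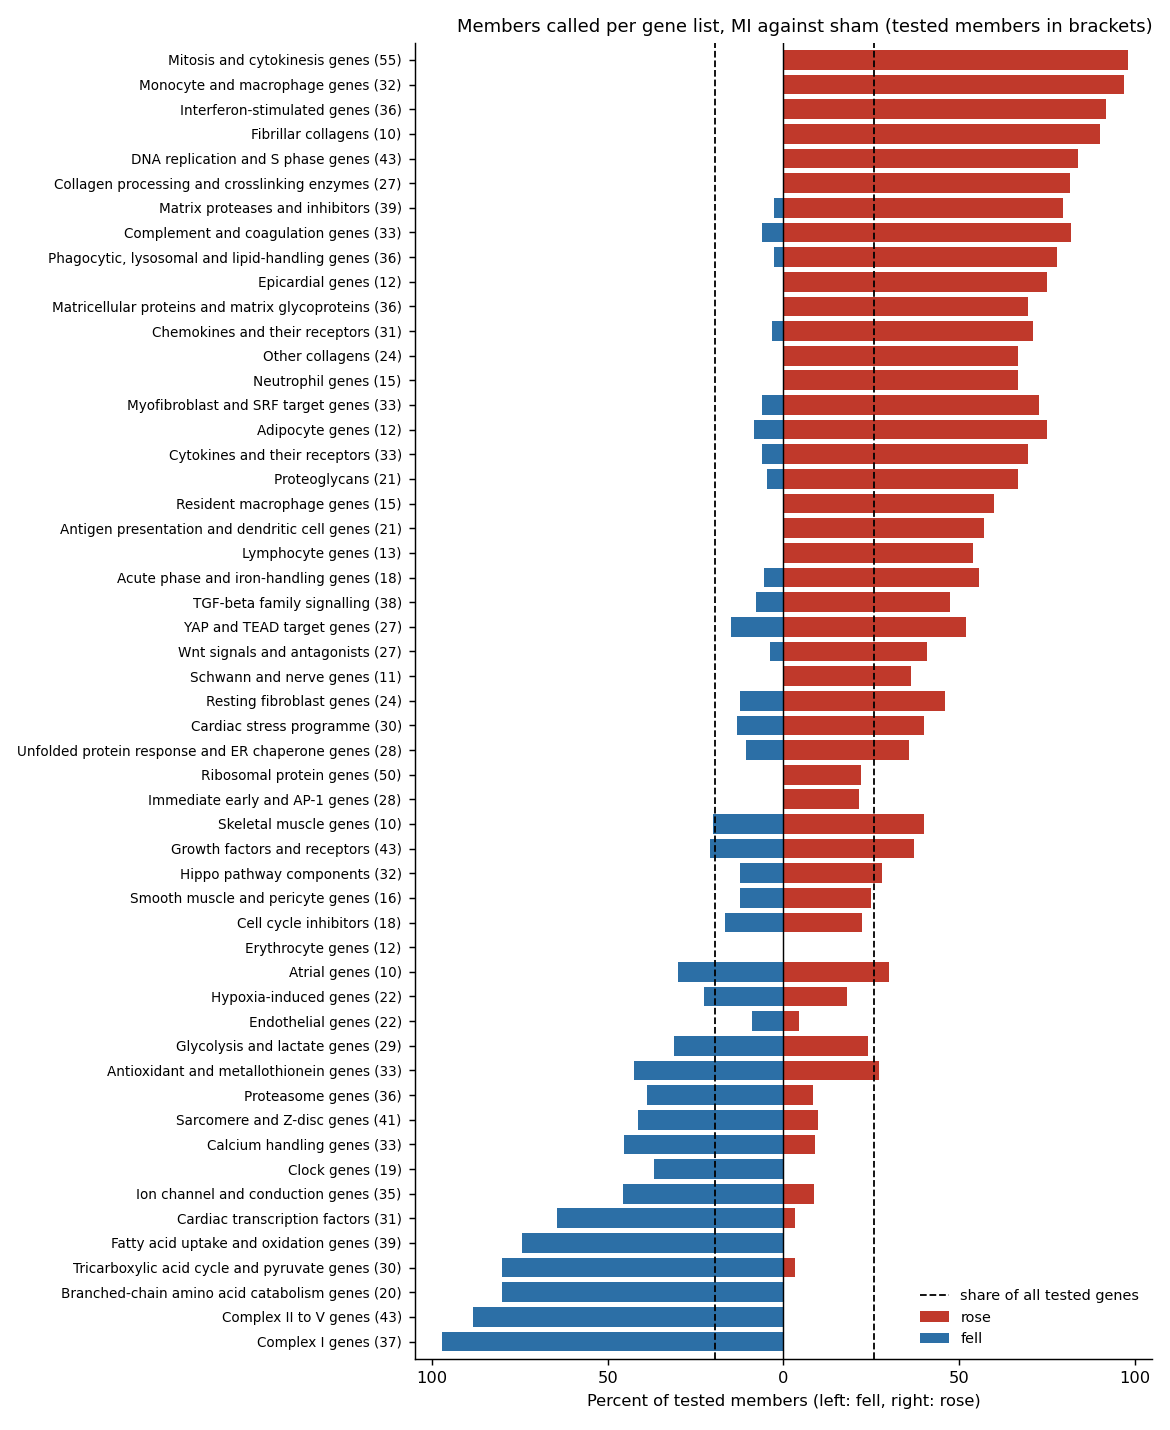
Percent of the tested members of each gene list (with 10 or more tested members) that rose (right, red) or fell (left, blue) after infarction in Cre-positive hearts, with dashed lines at the share of all tested genes (25.7% rose, 19.5% fell). Lists of cell division, macrophages, interferon response and collagens stand at the top, and those of the respiratory chain, amino acid breakdown and the citric acid cycle at the bottom.

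The fibrillar collagens, the rope-forming proteins of scar, rose most among the matrix lists. Col1a1, a chain of type I collagen (Entrez 12842, mm10 chromosome 11, 94936224 to 94953042), stood at 3670, 4262 and 4551 CPM in MI and 193, 28.2 and 114 CPM in sham replicates 1 to 3. Col3a1, the chain of type III collagen, stood at 3903, 4420 and 3830 against 263, 21.7 and 150 CPM. All MI libraries lay far above all sham libraries, and sham replicate 2 was the lowest of the sham hearts for both. Col1a1 rose by 5.22 ± 0.55 on the log2 scale (37.2-fold, edgeR adjusted p = 1.4e-05) and Col3a1 by 4.80 ± 0.64. The size of these folds depended on which sham hearts were used. Col1a1 came to 4.72 without sham replicate 2 and 5.87 without sham replicate 1, and Col3a1 to 4.25 and 5.55. Of 10 tested fibrillar collagens 9 rose and 0 fell (median 4.36, or 4.02 with 9 and 0 called when sham replicate 2 was left out). The exception was Col11a2 at -0.26, chosen for mention after its value was seen. Fn1 (fibronectin), the first scaffold of the wound, stood at 1414, 1158 and 1302 CPM against 81.4, 45.8 and 62.6. Summed over the list, fibrillar collagens took 11351, 12642 and 12558 CPM in MI and 787, 154 and 502 CPM in sham hearts.

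Other matrix genes rose with them. Of 24 other collagens 16 rose and 0 fell (median 1.89, 1.49 without sham replicate 2), among them Col12a1, which links fibrils, at 5.77 ± 0.21, and Col8a1, a network collagen of vessels and scar, at 3.76 ± 0.19. Of 27 enzymes that modify, cut or crosslink collagen 22 rose and 0 fell (median 1.28, with 20 rises without sham replicate 2), with the crosslinking enzyme gene Loxl3 at 3.68 ± 0.21 and Bmp1, the protease that removes the collagen propeptide, at 1.79 ± 0.13. Lox, the founding lysyl oxidase, held 270, 262 and 261 CPM in MI and 4.26, 26.5 and 5.36 CPM in sham hearts. Here sham replicate 2 was the highest sham heart, in contrast to the collagens, and the rise of Lox grew from 4.46 ± 0.56 to 5.75 without it. P4ha3, a subunit of the collagen-hydroxylating enzyme, rose by 6.18 ± 0.47 from 8 reads over the 3 sham libraries, or by 5.59 without sham replicate 2 and 7.03 without sham replicate 3.

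Postn, which carries the recombinase and encodes a matricellular protein of activated fibroblasts (Entrez 50706, mm10 chromosome 3, 54359267 to 54391041), reached 603, 628 and 674 CPM after MI from 10.2, 3.76 and 11.4 CPM in sham hearts. The groups were far apart, with a rise of 6.23 ± 0.35 (75-fold, edgeR adjusted p = 1.75e-07), or 5.84 without sham replicate 2. One Postn locus of these mice also carries MerCreMer, so the level is that of a modified gene. Of 36 matricellular and glycoprotein genes 25 rose and 0 fell (median 2.30). Without sham replicate 2 these were 27 and 2 (median 2.18). Spp1 (osteopontin) stood at 412, 452 and 657 CPM against 0.402, 0.55 and 1.03, a 781-fold rise, and the tenascin gene Tnc at 220, 284 and 320 against 1.53, 0.458 and 1.13 CPM, a rise of 8.01 ± 0.31. Cthrc1, made by scar fibroblasts, stood at 93.9, 116 and 131 CPM against 0.161, 0 and 0.413, with a log2 fold change of 9.21 ± 0.40 that ranged from 8.62 without sham replicate 2 to 10.2 without sham replicate 3, since the sham hearts held 6 reads in all. Wisp1, a secreted protein of the same family of signals as Ctgf, varied little within groups, at 43, 44.2 and 44.8 against 4.18, 3.57 and 4.74 CPM.

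Proteoglycans, the sugar-bearing proteins that space collagen fibrils, changed less as a list. Of 21 tested, 14 rose and 1 fell (median 0.89, 0.71 without sham replicate 2). Aspn (asporin) rose by 3.32 ± 0.15, Vcan (versican), typical of provisional matrix, by 2.69 ± 0.22 and Bgn (biglycan) by 2.50 ± 0.24. The membrane proteoglycan gene Gpc1 had a log2 fold change of -0.53 ± 0.15 (edgeR adjusted p = 0.0131), a call that ended without MI replicate 1 (0.0521), MI replicate 3 (0.0501) or sham replicate 1 (0.0528). Of 39 matrix proteases and inhibitors 31 rose and 1 fell (median 1.24, with 33 and 2 called without sham replicate 2). The smallest p belonged to the membrane proteases Adam12 at 5.78 ± 0.27 and Adam8 at 6.12 ± 0.29. Mmp15, a membrane metalloprotease, stood at -0.70 ± 0.24, and its call ended when any of 5 Cre-positive libraries, all but sham replicate 2, was left out (adjusted p = 0.0692 to 0.149).

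**Figure D2:**
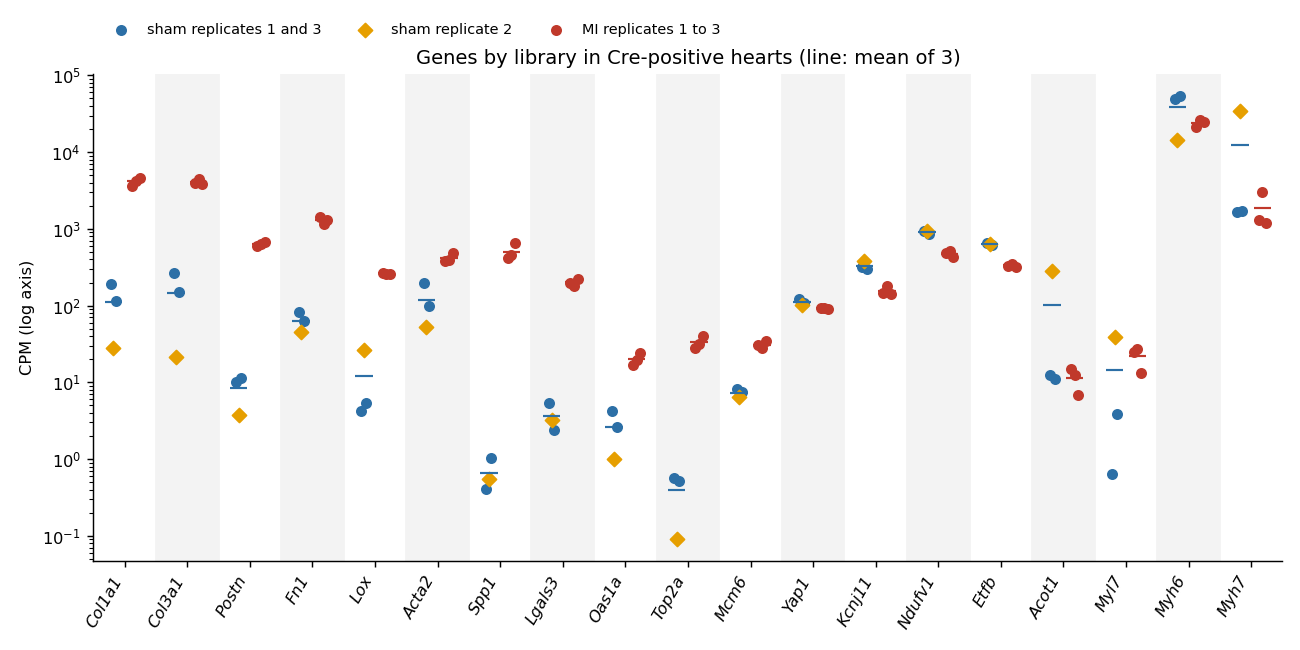
Level of 19 named genes in every Cre-positive library, in CPM on a log axis, with MI libraries in red, sham replicates 1 and 3 in blue, sham replicate 2 as an orange diamond and a line at the mean of each 3 libraries. Matrix, macrophage and division genes show no overlap between MI and sham, whereas for Acot1, Myl7 and Myh7 the highest library is sham replicate 2.

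Most genes of the contractile fibroblast list rose, while a factor that drives many of them and 1 of its cofactors fell. The list summed to 17866, 18315 and 18616 CPM in MI and 17698, 13777 and 17287 CPM in sham hearts. Of 33 myofibroblast genes and targets of serum response factor (SRF), 24 rose and 2 fell (median 1.57, with 24 and 4 called and a median of 1.43 without sham replicate 2). Tagln (transgelin) stood at 136, 120 and 139 CPM in MI and 15.8, 16.9 and 14 CPM in sham hearts, an 8.45-fold rise. Ltbp2, a matrix protein bound to elastic fibres, rose by 5.89 ± 0.32, and the actin-binding genes Cald1 and Tpm3 by 1.71 ± 0.12 and 1.63 ± 0.11. Acta2, smooth muscle actin, stood at 380, 388 and 484 CPM against 200, 52 and 100. Its rise of 1.82 ± 0.36 became 1.42 without sham replicate 2 and 2.45 without sham replicate 1. The 2 genes that fell were Srf itself, at 129, 125 and 139 CPM against 201, 219 and 165 (-0.57 ± 0.11), and its cofactor gene Myocd (myocardin), at 42, 43.2 and 41.5 CPM against 68.1, 131 and 71.2 (-1.10 ± 0.21). Both groups were separate for both genes, and both stayed called without sham replicate 2, at -0.52 and -0.76. Both are also expressed in heart muscle.

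SRF binds the CArG box, and 8 of 26 list members with a RefSeq promoter (30.8%) held one in the 250 bases before a start on either strand, against 1.62% of 27025 genes with a promoter and 1.41% of the tested ones. Cnn2, a calponin that steadies actin filaments, is shown because it had the smallest p among the members with a CArG box in a promoter window free of gene sequence. It stood at 118, 101 and 117 CPM after MI and 58.2, 40.2 and 49 CPM after sham surgery. Its 130 bases before the start (RefSeq, GRCm38.p6, chr10:79988470-79988599, plus strand) are written with the CArG box in capitals.
Cnn2: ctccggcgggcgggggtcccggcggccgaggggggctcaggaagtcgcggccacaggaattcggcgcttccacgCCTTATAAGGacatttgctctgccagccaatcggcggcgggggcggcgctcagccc
A match describes these letters only and says nothing on whether SRF was bound.

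Genes typical of resting fibroblasts went both ways. Of 24 tested, 11 rose and 3 fell (median 0.44, 0.29 without sham replicate 2), shares of rises and falls nearer to those of all genes than in the matrix lists. Cd248, a fibroblast and pericyte surface protein, rose by 1.84 ± 0.34 and Dpt (dermatopontin), a matrix protein, by 1.32 ± 0.29. Gsn, which encodes the actin-severing protein gelsolin, stood at 1101, 1248 and 868 CPM in MI and 2295, 1391 and 1673 CPM in sham hearts (-0.74 ± 0.17). The transporter gene Abca8a was at -0.42 ± 0.12, called no longer without MI replicate 2 (adjusted p = 0.061) or sham replicate 3 (0.052). Epicardial genes, which mark the outer covering of the heart, rose in 9 of 12 cases with 0 falls (median 1.24, 1.35 without sham replicate 2), among them Aldh1a2, the enzyme that makes retinoic acid there, at 2.57 ± 0.34 and the transcription factor gene Tbx18 at 1.32 ± 0.18.

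Genes of signals that act on fibroblasts rose more often than they fell. In the TGF-beta family 18 of 38 genes rose and 3 fell (median 0.29), and 5 fell without sham replicate 2 or without sham replicate 3. The ligand genes Tgfb3 and Tgfb2 rose by 1.95 ± 0.15 and 1.66 ± 0.20, and Fstl1, a secreted follistatin-like protein, went from 102, 37.8 and 76.8 CPM to 793, 775 and 770. Bmp6 (-0.68 ± 0.14) and the activin receptor gene Acvr2b (-0.45 ± 0.12) fell. Of 27 Wnt genes 11 rose and 1 fell (median 0.46, 0.86 without sham replicate 2), and 3 of the 4 with the smallest p were secreted antagonists, Frzb at 2.0 ± 0.11, Sfrp1 at 2.11 ± 0.19 and Sfrp2 at 4.56 ± 0.32 (5.19 without sham replicate 1). The fourth was the ligand gene Wnt4 (3.10 ± 0.37), and the receptor gene Fzd4 fell (-0.54 ± 0.11). Of 43 growth factors and receptors 16 rose and 9 fell (median 0.20, with 16 and 11 called without sham replicate 2). The share of falls was near the 19.5% of all genes, and that of rises was above their 25.7%. Igf1 stood at 2.92 ± 0.22 and Pdgfc at 2.47 ± 0.21. Vegfb stood at -0.88 ± 0.14 and Fgf13, an intracellular member that tunes sodium channels, at -0.78 ± 0.10.

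Yap1, the floxed gene (Entrez 22601, mm10 chromosome 9, 7931999 to 8004638), was read at 93.9, 92.9 and 91.1 CPM in MI and 121, 102 and 107 CPM in sham hearts. The groups did not overlap, and the log2 fold change was -0.25 ± 0.09 (edgeR adjusted p = 0.0364). The call held without sham replicate 2 (-0.34, 0.00916) but ended without MI replicate 1, 2 or 3, Cre-negative MI replicate 3 or sham replicate 1 (adjusted p = 0.051 to 0.113) and under the replicate block (0.0551), without the filter on low counts (0.0588) and with only the 6 Cre-positive libraries in the fit (0.137). Gene-level counts of the whole ventricle do not show how many cells lost the floxed exon. Of 27 targets of YAP and TEAD 14 rose and 4 fell, with the same counts without sham replicate 2 (median 0.51 and 0.63). Their risers included genes that other cell types also express, such as Itgb2, the leukocyte integrin chain, at 3.35 ± 0.21 and the division gene Birc5 (survivin) at 4.28 ± 0.32, besides Myof at 2.65 ± 0.18 and the secreted matrix protein gene Ccdc80 at 1.83 ± 0.13. F3 (tissue factor, -0.89 ± 0.14) and Ptpn14, a phosphatase that binds YAP (-0.61 ± 0.12), fell. The TEAD letters GGAATG were in the promoter of 7 of 17 list members (41.2%), against 14.4% of all genes with a promoter.

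Among 32 Hippo pathway components 9 rose and 4 fell (median 0.11, with 10 and 4 called without sham replicate 2), near the shares of all genes. The falls were 2 rather than 4 when MI replicate 1 was left out. The TEAD cofactor gene Vgll3 rose by 1.97 ± 0.27, the adaptor gene Rassf5 by 1.68 ± 0.17 and the kinase gene Taok3 by 1.35 ± 0.13, while besides Yap1 and Ptpn14 the TEAD factor gene Tead1 (-0.38 ± 0.11) and Nf2 (merlin), an upstream activator of the kinases (-0.46 ± 0.12), fell.

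Macrophage genes rose almost without exception. Of 32 monocyte and macrophage genes 31 rose and 0 fell, with and without sham replicate 2 (median 3.46 and 3.08), and the list summed to 2593, 2415 and 2829 CPM in MI and 432, 157 and 341 CPM in sham hearts. Lgals3 (galectin-3) stood at 200, 180 and 225 CPM against 5.31, 3.21 and 2.37, a 54.4-fold rise. Trem2, a lipid-sensing receptor of debris-clearing macrophages, stood at 56.3, 49.7 and 56.6 against 2.65, 1.37 and 2.78 CPM, and the pore-forming protein gene Mpeg1 at 233, 210 and 251 against 13.5, 7.7 and 8.87 CPM. The 3 genes were separate between groups by more than 10-fold in every library, and Cd68, the common macrophage marker, rose by 3.70 ± 0.22. Genes of macrophages resident in the healthy heart rose less, 9 of 15 with 0 falls (median 1.10, 0.74 without sham replicate 2). Cx3cr1, the fractalkine receptor, rose by 2.34 ± 0.28, Maf by 1.52 ± 0.14 and the engulfment receptor gene Mertk by 1.21 ± 0.18. Timd4, Lyve1 and Folr2, often used for the resident cells and named here after their values were seen, stood at 0.06, 0.26 and 0.98 and were not called.

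Neutrophil and lymphocyte lists were much lower in level. Neutrophil genes summed to 116, 146 and 130 CPM in MI and 84.1, 63.6 and 80.2 CPM in sham hearts, and 10 of 15 rose with 0 falls (median 2.0, 1.77 without sham replicate 2), such as the growth factor receptor gene Csf3r (2.0 ± 0.24) and Padi4 (3.25 ± 0.46), which opens chromatin in neutrophil traps. S100a8 and S100a9, also on the list, were not called, at 1.22 and 1.29, and are named after their values were seen. Of the 22 neutrophil genes listed, Ngp, Camp, Ltf, Elane, Mpo, Ly6g and Cd177 did not pass the count filter and were not tested. Lymphocyte genes summed to 38.3, 30.2 and 37.5 CPM against 14.2, 7.42 and 11.4. Of 13 tested, 7 rose and 0 fell (median 1.43), and 5 of 16 rose without sham replicate 2. Il7r, the receptor for a T cell survival factor, rose by 4.17 ± 0.42 and the B cell gene Cd22 by 2.07 ± 0.30. Of 21 genes of antigen presentation and dendritic cells 12 rose and 0 fell (median 1.2, with 15 of 22 without sham replicate 2), with the factor gene Irf8 at 1.66 ± 0.14, the class I gene H2-D1 at 1.28 ± 0.17 and the peptide transporter gene Tap1 at 1.66 ± 0.28. Of 7 mast cell and eosinophil genes 3 rose (median 0.06, with 2 rises without sham replicate 2), and the list's median changed sign when other libraries were left out.

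Many genes of recruiting and inflammatory signals rose as well. Of 31 chemokines and receptors 22 rose and 1 fell, with and without sham replicate 2 (median 2.61 and 2.22). Ccr2, the receptor of inflammatory monocytes, stood at 24.9, 31.7 and 43.3 CPM against 1.61, 0.367 and 1.24. Ccl9 and Ccl6 rose by 2.73 ± 0.23 and 2.92 ± 0.30, while Ackr3, a receptor that scavenges Cxcl12, had -0.65 ± 0.19 (adjusted p = 0.0149 and, without MI replicate 1, 0.0615). Of 33 cytokines and receptors 23 rose and 2 fell (median 1.27, with 25 and 2 called without sham replicate 2). Those with the smallest p were receptor chains, Il4ra at 1.63 ± 0.13, Tnfrsf1b at 2.15 ± 0.18, Csf2rb at 3.09 ± 0.29 and Il17ra at 2.08 ± 0.20. The 2 that fell were receptor chains of the interleukin-6 family, Il11ra1 (-0.38 ± 0.09) and the shared chain Il6st (-0.28 ± 0.08, not called without MI replicate 1, adjusted p = 0.06).

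Interferon-stimulated genes, the antiviral set switched on by type I interferon, rose in 33 of 36 cases with 0 falls (median 1.52, with 31 called and a median of 1.28 without sham replicate 2). The list summed to 1077, 1104 and 1403 CPM in MI and 603, 325 and 518 CPM in sham hearts, a gap smaller than that of the macrophage list. Oas1a, an activator of RNA decay, stood at 16.9, 19.6 and 23.8 against 4.18, 1.01 and 2.58 CPM, a 7.63-fold rise. The antiviral GTPase gene Mx1 rose by 3.64 ± 0.45, the RNA sensor gene Ddx58 by 1.06 ± 0.12 and Samd9l by 1.34 ± 0.18. The interferon-stimulated response element was searched on both strands as GAAA, any 2 bases and GAAA, and 12 of 27 members with a promoter held it (44.4%), against 3.46% of all genes with a promoter and 3.31% of the tested ones. Oas3, a relative of Oas1a, is shown as the member with the smallest p whose element lies in a window free of gene sequence, and it stood at 7.32, 8.69 and 14.5 CPM against 2.09, 1.47 and 1.86. The 130 bases before the gene (RefSeq, GRCm38.p6, chr5:120777685-120777814, minus strand) carry the element in capitals.
Oas3: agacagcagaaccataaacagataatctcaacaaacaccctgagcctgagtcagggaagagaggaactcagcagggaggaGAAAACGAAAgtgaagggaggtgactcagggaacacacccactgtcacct

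Genes of debris handling rose as well. Of 33 complement and coagulation genes 27 rose and 2 fell (median 1.89, 1.55 without sham replicate 2), with complement factor B (Cfb) at 2.99 ± 0.22 and the receptor genes C3ar1 and C5ar1 at 3.49 ± 0.31 and 2.43 ± 0.28. The initiator of clotting F3 and its inhibitor Tfpi (-0.61 ± 0.14) were the 2 that fell. Of 36 phagocytic, lysosomal and lipid-handling genes 28 rose and 1 fell (median 1.33, with 30 and 0 called without sham replicate 2), such as the protease gene Ctsz at 2.50 ± 0.16. The faller, the fatty acid receptor gene Cd36, stood at 1236, 1259 and 899 CPM against 1174, 2957 and 1546, with groups that overlapped (-0.74 ± 0.27). Its call ended without sham replicate 2 (-0.30, adjusted p = 0.156) and without any single MI library of either genotype (0.0537 to 0.15).

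Iron-handling genes diverged within a single complex. Hmox1, which frees iron from haem, stood at 226, 203 and 256 CPM in MI and 13.4, 21 and 8.77 CPM in sham hearts, a 15.8-fold rise. The ferritin light chain gene Ftl1 rose from 389, 439 and 273 to 1558, 1469 and 1838 CPM (2.14 ± 0.18). Its partner, the heavy chain gene Fth1, stood at 2332, 2383 and 2248 CPM against 2850, 3506 and 2714 (-0.38 ± 0.12), a call that ended without MI replicate 1 (adjusted p = 0.0593) or MI replicate 3 (0.0733). Of 18 acute phase and iron-handling genes 10 rose and 1 fell (median 2.06), and so did 10 and 1 of 19 without sham replicate 2. Of 33 antioxidant genes 9 rose and 14 fell (median -0.41), or 11 and 14 without sham replicate 2 (median -0.13). With all libraries the share of rises was near the 25.7% of all genes, and that of falls was above their 19.5%. Gpx1 (1.54 ± 0.17), the extracellular dismutase gene Sod3 (1.45 ± 0.16) and Txn1 (0.78 ± 0.10) rose, while mitochondrial Prdx3 fell by 0.67 ± 0.10 on the log2 scale. Leaving out MI replicate 2 or sham replicate 3 reduced the rises from 9 to 5 and 4.

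Nearly all cell division genes rose. Of 55 genes of mitosis and cytokinesis 54 rose and 0 fell (median 3.94, with 52 called and a median of 4.02 without sham replicate 2), the exception being the checkpoint gene Bub3 at 0.17. Top2a, which untangles chromosomes, stood at 27.8, 31.6 and 40.2 CPM after MI and 0.563, 0.0916 and 0.516 CPM after sham surgery, an 82.4-fold rise. Cenpe and Ccnb2 rose by 5.18 ± 0.26 and 5.55 ± 0.30 from 8 and 6 reads over the sham hearts, and the spindle gene Tpx2 by 3.67 ± 0.20. The list summed to 639, 679 and 820 CPM against 136, 150 and 141. With the 4 members that had no read in the sham hearts set at the floor of 3 reads, the median stayed at 3.94. Of 43 genes of DNA replication 36 rose and 0 fell, 35 without sham replicate 2 (median 1.63 and 1.47). The helicase subunit gene Mcm6 stood at 30.4, 28.1 and 34.8 CPM against 8.2, 6.41 and 7.43, a 4.22-fold rise, and Uhrf1, E2f1 and Gins2 rose by 3.67 ± 0.26, 2.90 ± 0.21 and 3.05 ± 0.23.

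Promoter letters known from division genes were counted in both division lists. Mitotic genes are known for pairing a cell cycle homology region (CHR, searched as TTTGAA) with CCAAT boxes, and replication genes for E2F sites (TTTCCCGC, TTTCGCGC, TTTGCCGC or TTTGGCGC), each searched on both strands. CHR and CCAAT stood together in 14 of 45 mitotic promoters (31.1%), in 6 of 34 replication promoters (17.6%) and in 6.45% of all. E2F letters stood in 10 of 34 replication promoters (29.4%), 1 of 45 mitotic promoters (2.22%) and 2.16% of all. Top2a and Mcm6 are shown as the members of each list with the smallest p and the letters in such a window, 130 bases before the gene (RefSeq, GRCm38.p6), in capitals. Top2a (chr11:99024200-99024329, minus strand) has 1 CHR and 3 CCAAT boxes, and Mcm6 (chr1:128359706-128359835, minus strand) has 3 E2F matches, of which 2 overlap on opposite strands.
Top2a: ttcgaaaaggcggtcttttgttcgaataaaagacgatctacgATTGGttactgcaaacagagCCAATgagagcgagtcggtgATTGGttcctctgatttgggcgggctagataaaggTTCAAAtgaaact
Mcm6: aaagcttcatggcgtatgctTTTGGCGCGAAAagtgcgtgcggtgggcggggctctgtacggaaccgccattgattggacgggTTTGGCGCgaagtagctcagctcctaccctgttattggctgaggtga
The letters describe the sequence and no binding was measured.

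Among brakes on the cell cycle, rises and falls had shares near those of all genes when all libraries were used. Of 18 tested, 4 rose and 3 fell (median 0.10). Without sham replicate 2, 8 of 19 rose and 2 fell (median 0.48), a share of rises above the 25.6% of all genes. The inhibitors Btg1 (1.0 ± 0.09), Cdkn2c (0.68 ± 0.10) and Cdkn2b (2.93 ± 0.46, from 9 reads in sham hearts) and the pocket protein gene Rbl1 (1.75 ± 0.22) rose, while Cdkn1c fell by 0.70 ± 0.17 on the log2 scale. Rbl2, the other pocket protein of quiescent cells, stood at -0.52 ± 0.19, and its call ended without MI replicate 1, 2 or 3 or sham replicate 2 (adjusted p = 0.0548 to 0.124).

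**Figure D3:**
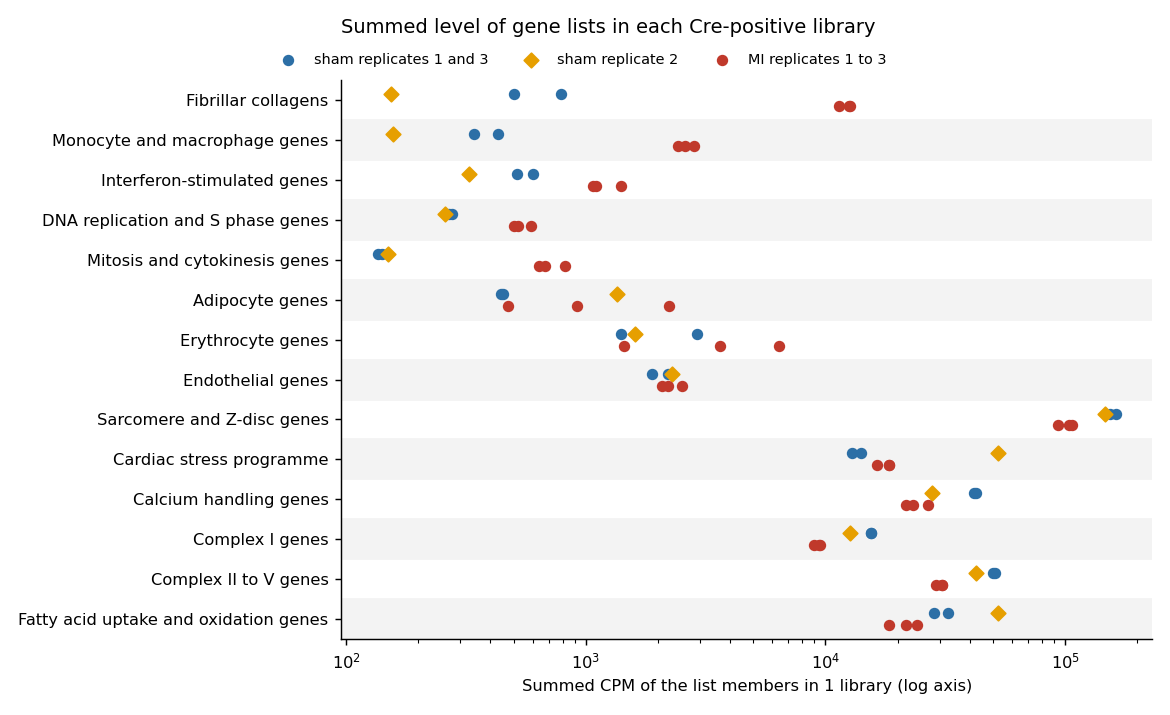
Summed CPM of the members of 14 gene lists in each Cre-positive library, on a log axis, with MI in red, sham replicates 1 and 3 in blue and sham replicate 2 as an orange diamond. Fibrillar collagens run from 154 to 787 CPM in sham and from 11351 to 12642 CPM in MI hearts, and sham replicate 2 lies apart from the other sham hearts in the stress programme, fatty acid and collagen lists.

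Genes of the muscle cell fell by modest amounts. The sarcomere list, the contractile machinery that defines ventricular muscle, was by far the most abundant of those summed and dropped from 154731, 146577 and 162498 CPM in sham to 93627, 107237 and 103868 CPM in MI hearts, so heart muscle RNA was present in all 6 libraries. Of 41 members 4 rose and 17 fell (median -0.44), and of 42 tested without sham replicate 2, 8 rose and 24 fell (median -0.40). The Z-disc gene Myoz2 fell, with a log2 fold change of -0.82 ± 0.12. Against the trend Xirp2, an actin-binding protein of the intercalated disc, rose from 184, 315 and 298 to 542, 746 and 918 CPM (1.47 ± 0.22). Myom2, a crosslinker of the M band, stood at 1787, 2063 and 1195 CPM against 2889, 6792 and 3348 and fell by 1.37 ± 0.31 on the log2 scale, and its log2 fold change was -0.93 without sham replicate 2.

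The 2 cardiac myosin heavy chains gave other values with and without sham replicate 2. Myh7, the slow chain that adult mouse ventricles keep low, stood at 1289, 3042 and 1207 CPM in MI and 1642, 34063 and 1730 CPM in sham replicates 1 to 3. Sham replicate 2 was the highest of the 6 by a wide margin and the other 5 hearts overlapped. Its log2 fold change of -2.76 ± 1.07 (edgeR adjusted p = 0.0531) became 0.09 (0.915) without that library. Myh6, the fast chain of the adult mouse, stood at 21184, 25973 and 24988 against 49614, 14335 and 53143 CPM. Its log2 fold change was -0.70 ± 0.36 (adjusted p = 0.135) with all libraries and -1.13 (6.5e-05) without sham replicate 2, when every MI heart lay below both remaining sham hearts. Reads of these neighbouring and similar genes can be divided between them by the counting.

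More excitation and calcium genes fell than rose. Of 33 calcium handling genes 3 rose and 15 fell (median -0.41), 3 and 20 without sham replicate 2 (median -0.54). Adcy6, the adenylate cyclase below the beta receptors, stood at 228, 219 and 224 CPM against 449, 467 and 371 (-0.94 ± 0.13), the kinase gene Camk2a at -0.88 ± 0.13 and the phosphodiesterase gene Pde3a at -1.16 ± 0.18. The calmodulin gene Calm2, which many cell types express, rose by 0.69 ± 0.12. Of 35 channel and conduction genes 3 rose and 16 fell (median -0.60, with 23 falls without sham replicate 2). Genes of ATP-sensitive potassium channels fell. The pore gene Kcnj11 went from 318, 379 and 298 to 146, 182 and 142 CPM (-1.08 ± 0.12). The regulatory genes Abcc8 and Abcc9 stood at -0.97 ± 0.10 and -0.93.

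Of 31 cardiac transcription factors 20 fell and 1 rose (median -0.59, with 21 and 2 without sham replicate 2). Rxrg, a nuclear receptor partner, and Hopx fell by 1.08 ± 0.11 and 1.08 ± 0.12 on the log2 scale, Prox1 by 1.02 ± 0.16 and Esrra, a driver of mitochondrial genes, by 0.61 ± 0.10. Gata5 at 1.12 ± 0.37 was the riser and lost its call without MI replicate 1 (adjusted p = 0.112) or sham replicate 3 (0.102). The stress programme of injured muscle rose in 12 of 30 cases and fell in 4 (median 0.29), or in 16 and 5 without sham replicate 2 (median 0.55). Nppa, the atrial natriuretic peptide, stood at 2298, 2569 and 3477 CPM against 619, 1231 and 333 (1.93 ± 0.36, 2.50 without sham replicate 2). Sprr1a, a stress-induced protein, stood at 178, 248 and 228 CPM against 0.563, 0.0916 and 0.516, and Timp1, an inhibitor of matrix proteases, rose by 5.98 ± 0.43. The small heat shock protein gene Hspb8 and its partner Bag3, which clear damaged sarcomere proteins, fell by 0.60 ± 0.10 and 0.68 ± 0.12 on the log2 scale.

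The respiratory chain fell together. Of 37 complex I genes 36 fell and 0 rose, and all 37 fell without sham replicate 2 (median -0.62 and -0.74). Their sum dropped from 15458, 12626 and 15480 to 9457, 9427 and 8970 CPM. Ndufv1, the subunit that takes electrons from NADH, stood at 478, 516 and 436 CPM against 946, 947 and 845 (-0.94 ± 0.11), and Ndufb9 (-0.71), Ndufs7 (-0.80) and Ndufb11 (-0.73) fell with it. Of 43 genes of complexes II to V 38 fell and 0 rose, 40 without sham replicate 2 (median -0.58 and -0.71), such as the muscle forms of cytochrome oxidase Cox6a2 (-0.92 ± 0.12) and Cox8b (-0.98 ± 0.14) and the ATP synthase gene Atp5c1 (-0.79 ± 0.11). The oxidase subunit gene Cox6a1, whose muscle counterpart is Cox6a2, stood at 0.16 and was not called, and it is named after its value was seen. The element of the ERR factors was searched as TCAAGGTCA and found in 0 of 33 complex I promoters and 1 of 33 in complexes II to V, against 0.422% of all genes with a promoter.

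Fuel pathways that feed the chain fell as well. Of 30 genes of the citric acid cycle and pyruvate 24 fell and 1 rose (median -0.65, with 27 falls without sham replicate 2). The kinases that switch off pyruvate dehydrogenase parted, Pdk2 from 1112, 1133 and 999 to 495, 493 and 454 CPM (-1.17 ± 0.10) and Pdk3 up from 4.18, 3.94 and 5.26 to 12.3, 10.9 and 13 CPM (1.44 ± 0.19). Of 20 genes that break down branched-chain amino acids 16 fell and 0 rose (median -0.63, with 18 falls without sham replicate 2), among them Hsd17b10 (-1.01 ± 0.11) and Auh (-0.77 ± 0.08). Of 39 genes of fatty acid uptake and oxidation 29 fell and 0 rose (median -0.86). Without sham replicate 2 these were 24 and 1 (median -0.62), since that library held 52312 CPM of the list against 28340 and 32401 in the other sham and 18495 to 24062 CPM in the MI hearts. Etfb, which passes electrons from fat to the chain, did not depend on it, at 332, 352 and 318 CPM against 650, 639 and 614 (-0.93 ± 0.10, -0.96 without sham replicate 2). Eci1 kept its call but moved from -1.29 ± 0.21 to -0.96.

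Glycolysis did not move as a block. Of 29 genes 7 rose and 9 fell (median -0.27), with 6 rises and 14 falls without sham replicate 2. With all libraries the share of rises was near that of all genes, and that of falls was above it. The lactate exporter gene Slc16a3 rose from 3.3, 3.39 and 2.58 to 22.4, 21.6 and 33.1 CPM (3.05 ± 0.20) and the leukocyte hexokinase gene Hk3 by 3.21 ± 0.35, while Ldhb, the heart form of lactate dehydrogenase, fell from 2418, 1931 and 2235 to 1133, 1169 and 1062 CPM (-0.97 ± 0.11). Of 22 hypoxia-induced genes 4 rose and 5 fell (median -0.14, and 0.09 on FPKM), the same counts as without sham replicate 2. The share of rises was below the 25.7% of all genes and that of falls near their 19.5%. The rises were 2 without MI replicate 3. The 2 oxygen-regulated factors parted, Hif1a at 0.76 ± 0.15 and Epas1 at -0.86 ± 0.11, and the oxygen sensor gene Egln1 fell by 0.81 ± 0.14 on the log2 scale.

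Protein synthesis and turnover genes changed little in size. Ribosomal proteins had 11 rises and 0 falls among 50 genes (median 0.17, with 13 rises without sham replicate 2), a share of rises below that of all genes. Rpl3, at 0.66 ± 0.11, had the smallest p. The 11 rises were 7 without MI replicate 3 and 5 without sham replicate 3. Of 28 genes of the unfolded protein response 10 rose and 3 fell (median 0.20, with 14 and 2 called without sham replicate 2), with the degradation factor gene Edem1 at 1.70 ± 0.14 and the disulfide enzyme genes Pdia5 and Pdia4 at 2.05 ± 0.17 and 1.15 ± 0.12 against Herpud1 at -0.72 ± 0.17. The falls were 5 without sham replicate 1. Of 36 proteasome genes 14 fell and 3 rose (median -0.22, and 0.01 on FPKM), and 12 fell and 2 rose without sham replicate 2. The risers included 2 subunits of the interferon-induced immunoproteasome, Psmb8 at 1.43 ± 0.21 and Psmb9 at 1.35 ± 0.27, while the ATPase genes Psmc3 and Psmc5 fell by 0.49 ± 0.11 and 0.32 ± 0.08 on the log2 scale. The 14 falls became 6 without MI replicate 1 or 3 and 9 without MI replicate 2.

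Immediate early genes, which respond within minutes to growth signals or handling, rose in 6 of 28 cases with 0 falls (median 0.37). That share of rises was below the 25.7% of all genes. Without sham replicate 2 they rose in 14 of 29 cases (median 0.89), a share above the 25.6% of all genes. Egr2 and Egr3 rose by 4.76 ± 0.42 and 2.85 ± 0.34, and Myc stood at 16.5, 17.2 and 17.4 CPM against 3.38, 9.07 and 4.33, with sham replicate 2 again the highest sham heart. Of 19 clock genes 7 fell and 0 rose, with and without sham replicate 2 (median -0.50 and -0.38), such as Hlf (-0.74 ± 0.16) and Cry2 (-0.69 ± 0.16). The 7 falls were 3 without MI replicate 2 and 4 without MI replicate 3. The labels used here give no time of day for the collection, so its part in the clock genes was not tested.

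Few endothelial genes were called. Of 22 endothelial genes 1 rose and 2 fell (median 0.09), 4 and 3 without sham replicate 2, and 3 rose without sham replicate 1. Plvap, of permeable vessels, rose from 19, 13.7 and 11.2 to 76.4, 76 and 61.9 CPM (2.28 ± 0.20), while the growth factor receptor gene Flt1 fell by 0.78 ± 0.14 on the log2 scale. Kdr, the main receptor of that family, stood at -0.51 ± 0.18 and lost its call without MI replicate 1 or 2, Cre-negative MI replicate 3 or sham replicate 1 or 3 (adjusted p = 0.0519 to 0.123). The endothelial sum overlapped, at 2531, 2073 and 2202 CPM in MI and 2203, 2285 and 1896 CPM in sham hearts. Of 16 smooth muscle and pericyte genes 4 rose and 2 fell (median 0.14, with 3 and 3 called without sham replicate 2). The share of rises was near the 25.7% of all genes. Cnn1 stood at 3.88 ± 0.39 (4.59 without sham replicate 1) against the channel genes Abcc9 (-0.93 ± 0.14) and Kcnj8 (-0.59 ± 0.11). Of 8 lymphatic genes 2 rose and 2 fell, with and without sham replicate 2, shares near those of all genes. They were Pdpn at 2.11 ± 0.14 and Nrp2 at 0.78 ± 0.18 against Reln at -1.03 ± 0.23 and Prox1, which heart muscle also expresses.

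Markers of tissues outside the ventricular wall varied from heart to heart. Adipocyte genes rose in 9 of 12 cases and fell in 1 (median 4.73, with 9 and 0 of 14 without sham replicate 2), but the MI hearts differed widely among themselves. Car3, an abundant enzyme of fat cells, stood at 360, 12.2 and 117 CPM in MI and 3.3, 1.01 and 2.27 CPM in sham hearts, and Cfd (adipsin) at 334, 7.42 and 86.5 against 3.54, 3.12 and 1.75. MI replicate 1 was the highest for both, and without it the log2 fold changes shrank from 6.19 to 4.86 for Car3, from 5.64 to 4.04 for Cfd, from 3.91 to 2.88 for Scd1 and from 1.98 to 1.31 for Fasn, all still called. The list summed to 2224, 475 and 923 CPM against 450, 1349 and 442, and of its 15 members 0 to 1 were at 0 in MI and 1 to 3 in sham hearts. Of 12 erythrocyte genes 0 rose and 0 fell, with and without sham replicate 2 (median 0.84 and 0.74). They summed to 3633, 1440 and 6422 CPM in MI against 2899, 1599 and 1398 in sham hearts. Of 10 skeletal muscle genes 4 rose and 2 fell (median 0.90), or 5 and 2 without sham replicate 2 (median 1.27). Tnnt3 stood at 5.58 ± 0.51 from 10 reads in sham hearts (6.26 without sham replicate 2), while Ckm (-0.96) and Tnnt1 (-0.70) fell. The Tnnt1 call ended without MI replicate 1 or 2, among others. The list summed to 1475, 1352 and 1565 CPM in MI and 3476, 1570 and 2867 CPM in sham hearts. Its members Myh1, Myh2 and Myh4 were not tested. Of 11 Schwann and nerve genes 4 rose and 0 fell, with and without sham replicate 2 (median 0.79 and 0.65), such as Mbp at 1.45 ± 0.20. The part of such tissue in the other results was not tested.

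Sham replicate 2 differed from the other sham hearts in genes of several kinds. Genes of fat metabolism were high in it, Acot1 with 282 CPM against 12.5 and 10.9 in the other sham and 6.84 to 15.1 CPM in the MI hearts, and the related gene Acot2 with 505 against 82.8 and 94.3 CPM. Their log2 fold changes went from -3.15 ± 1.04 (edgeR adjusted p = 0.0268) to -0.07 (0.917) and from -1.62 ± 0.55 (0.0313) to -0.29 (0.305) without it. Acot1 and Acot2 are close paralogs, so the counting may divide their reads, and both also lost the call without any single MI replicate (adjusted p = 0.0588 to 0.0917 and 0.0589 to 0.102). Among the largest other changes of calls that ended without sham replicate 2 were Lgals4 (-2.11 to -0.74), the lipid droplet gene Plin4 (-1.22 to -0.34), Tfdp2 (-1.12 to -0.40), the fat transporter gene Slc27a1 (-0.94 to -0.29), the lipase gene Pnpla2 (-1.06 to -0.42), Cdkl1 (-1.04 to -0.49) and Mlycd (-1.11 to -0.58). These 9 genes lost the call without MI replicate 3 too. Abundant falls that kept their call shrank, Ppargc1a, the coactivator of mitochondrial genes, from -1.43 to -0.67, the lipid droplet gene Plin5 from -1.44 to -0.74 and Tacc2 from -1.39 to -0.53, the last of which was not called without MI replicate 3 (adjusted p = 0.058).

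Other genes were called only without sham replicate 2. Angptl4, an inhibitor of lipoprotein lipase, stood at 40.9, 29.9 and 28.1 CPM in MI and 2.17, 66.5 and 2.37 CPM in sham hearts, and its log2 fold change went from 0.48 ± 0.96 to 3.82 (edgeR adjusted p = 0.000632). The stress factor gene Atf3 stood at 19.4, 16.1 and 16.9 against 3.86, 115 and 2.27 CPM and went from -1.21 to 2.44. In both, 5 hearts fell into separate groups and sham replicate 2 lay above them all. The atrial myosin light chain genes Myl7 and Myl4, at 38.9 and 43.2 CPM in sham replicate 2 against 0.643 to 5.98 in the other sham hearts, went from 0.59 to 3.34 and from 0.70 to 2.70. Fstl3, Fkbp10, Mt2 and Fam46a went from 1.15, 0.91, 0.89 and 0.57 to 2.34, 1.84, 1.77 and 1.64. Of 10 atrial genes 3 rose and 3 fell with all libraries (median 0.40), and of 11 tested without it 6 rose and 3 fell (median 0.85).

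**Figure D4:**
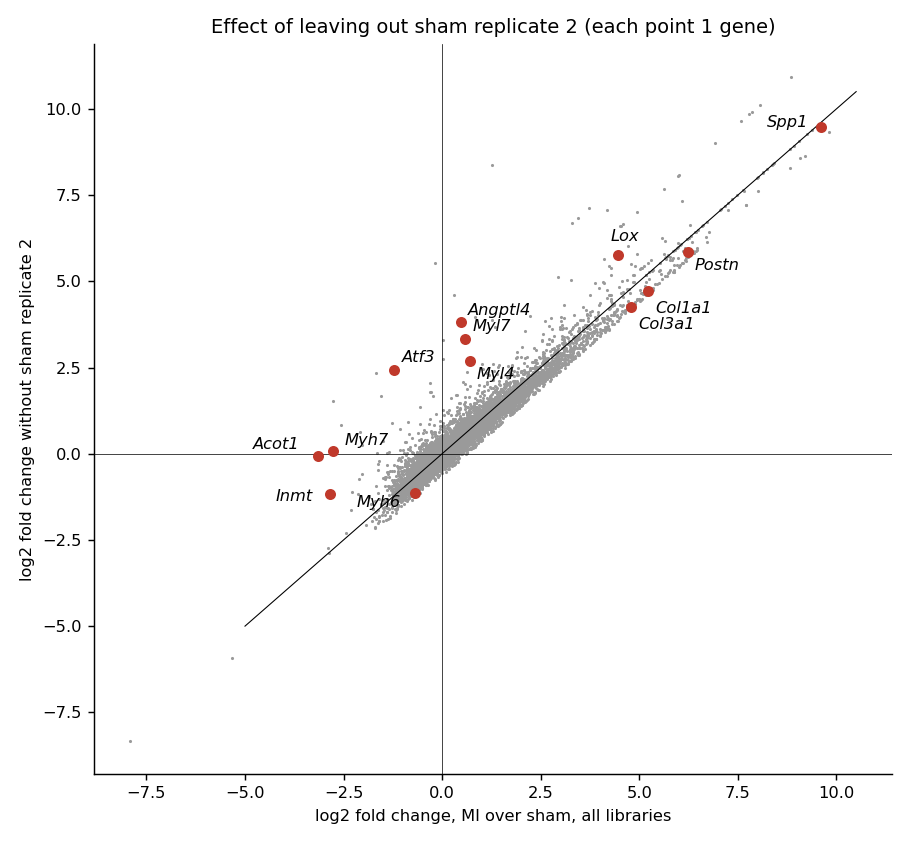
Log2 fold change of MI over sham with all libraries (x axis) against that without sham replicate 2 (y axis), 1 point per tested gene, with the line of equal values and 13 genes marked in red. Most genes lie along the line, while Myh7, Acot1, Atf3, Angptl4, Myl7 and Myl4 lie above it.

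Falls that did not rest on sham replicate 2 were led by Cyfip2, a regulator of actin, at 114, 128 and 123 CPM in MI and 441, 353 and 407 CPM in sham hearts (-1.72 ± 0.23, -1.84 without it). Wnk2, a kinase that controls salt transport, stood at 74.8, 75 and 77.5 against 219, 189 and 213 CPM (-1.45 ± 0.12), and Acad12, of the acyl-CoA dehydrogenase family, at 29.2, 32.9 and 30.7 against 80.8, 94.2 and 73.9 CPM (-1.42 ± 0.12). The groups were well separated for all 3 genes. Pttg1 (securin) went the opposite way to the mitotic list, at 29, 35.1 and 31.1 CPM against 103, 106 and 96.9 (-1.68 ± 0.26). Lrrc4b (-1.50 ± 0.32), the prostaglandin synthase gene Ptgds (-1.35 ± 0.33) and the glutathione transferase gene Gstm1 (-1.30 ± 0.23) were the remaining abundant falls.

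Hearts without the recombinase were compared by testing the difference of the 2 injury responses, which share no libraries. In Cre-negative hearts 4090 genes rose (29.9%) and 3334 fell (24.4%). The difference was called for 0 of 13678 genes by edgeR, with 1116 (8.16%) at an unadjusted p under 0.05, and by DESeq2 20 genes were larger and 13 smaller in Cre-positive hearts. The smallest adjusted p, 0.0777, belonged to Tnc and Cthrc1, whose rises were larger by 2.78 ± 0.39 and 4.34 ± 0.58 in Cre-positive hearts and which are named after their values were seen. Their MI levels were close, at 220 to 320 CPM of Tnc in Cre-positive and 313 to 407 in Cre-negative hearts and at 93.9 to 131 and 118 to 146 CPM of Cthrc1. It was in the sham hearts that they differed more, with 0.458 to 1.53 against 8.29 to 12.7 CPM of Tnc and 0 to 0.413 against 2.8 to 5.91 CPM of Cthrc1. Sex was spread unevenly, with Y-linked reads in 3 of 3 Cre-negative MI and 2 of 3 Cre-negative sham libraries, and its part in the comparison was not tested.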

How the data were processed

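Left ventricular RNA of mice, 12 libraries in 4 groups of 3, was sequenced by the authors. Bowtie2 2.2.5, RSEM 1.2.12 and the mm10 build are named, per the submitters' processing notes. The deposited files of each library give expected counts and FPKM for each gene, per the file headers; how the authors filtered genes is not given in the sources used here. A deposited DESeq2 table of the same comparison holds, by the authors, log2 fold changes and p-values (raw and adjusted), and is quoted for counts of genes only. Genes that a library leaves out were set to 0, and expected counts were rounded (74.0% of those above 0 lay within 0.005 of a whole number as deposited).

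The analysis used edgeR 4.0.16 under R 4.3.3. filterByExpr (minimum count 10) left 13678 of 17471 genes. After TMM scaling, 1 quasi-likelihood fit over the 12 libraries took a separate mean for each group and left 8 residual degrees of freedom. Two-sided p-values received the Benjamini-Hochberg adjustment across every tested gene, with calls at an adjusted p under 0.05. CPM come from the scaled counts. With 3 libraries against 3, an exact permutation test of 1 gene cannot give a p below 0.1 and was not used.

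Members and gene lists were chosen with earlier results of these data known. Genes were named by rule: in each of 55 lists up to 4 members with the smallest p and up to 2 called against the majority, the 12 largest rises and falls of abundant genes (at least 5 log2 CPM), 10 genes each whose call ended or began without sham replicate 2, and Yap1, Postn, Myh6 and Myh7. Not every gene so named is printed, and some are not reported here. The genes whose promoters are shown were taken by the smallest p among members with the motif. Lists are described by counts and medians, with no test. Positions and promoter sequences are RefSeq's (GRCm38.p6, the assembly of mm10), and 17436 genes matched by identifier. The fitting code was tested on simulated data.

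Alternatives were DESeq2 1.42.0, RLE size factors, all genes without a minimum count, the replicate number as a block, the Cre-positive libraries alone and each library left out in turn. List medians were also taken from FPKM (pseudocount 0.1), which moved the median of all genes from 0.02 to 0.24. Replicates of each group were compared pairwise, and none were identical.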

Additional observations from a re-analysis of the deposited data

How the results depend on the processing

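Leaving out each of the 12 libraries in turn gave 3078 to 3548 rises and 1982 to 3055 falls, of which 2013 to 2195 and 146 to 289 were at least 2-fold, and 0 to 1 gene whose response was larger in Cre-positive hearts. With only the 6 Cre-positive libraries in the fit, falls dropped to 1771 (rises 2859), where fewer libraries estimate the spread. For the difference of the responses, 2 genes were larger in Cre-positive hearts without the filter on low counts, and DESeq2 called 20 larger and 13 smaller. With the replicate number as a block, 3520 genes rose and 2630 fell, 2103 and 195 by at least 2-fold. The labels do not pair the samples. Deviations of same-numbered Cre-positive MI and sham libraries from their group means correlated at -0.0645, 0.0466 and 0.0583. Between same-numbered Cre-positive and Cre-negative MI libraries they correlated at 0.288, -0.00749 and 0.254. With 3 libraries per group such values cannot exclude a pairing.

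Some log2 fold changes changed sign. Without sham replicate 2, Atf3 came to 2.44, Myh7 to 0.09 and Scd4 to 2.06 (2.45, 0.10 and 2.07 with only the Cre-positive libraries). Over all left-out libraries Atf3 ran from -1.76 to 2.44, Myh7 from -3.32 to 0.09, Scd4 from -1.24 to 2.06 (0.15 without MI replicate 3), Hbb-bt from -0.05 (without MI replicate 3) to 2.49 and Angptl4 from -0.07 and -0.05 (without sham replicate 1 or 3) to 3.82. The cause was not tested. Of 286 genes named by rule, 285 kept direction and side of the threshold under RLE scaling, 283 without the filter, 279 with DESeq2, 277 with the replicate block and 264 with only the 6 Cre-positive libraries, where 21 lost their call. On FPKM the medians of the hypoxia and proteasome lists changed sign, and those of the mast cell, Hippo, endothelial and erythrocyte lists did so when 1 library was left out.

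Fold changes of genes with 10 or fewer reads over the sham hearts rest on those reads, and 3 libraries per group limit the precision of all results.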

Other observations

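Evi2 and Evi2b, neighbouring genes whose transcripts lie within an intron of Nf1, moved in opposite directions and were noticed after their values were seen. Evi2 was read at 3.3, 1.01 and 2.58 CPM in sham replicates 1 to 3 and at 0 in all 3 MI hearts, while Evi2b went from 0, 0 and 0.825 to 15.8, 16 and 21.3 CPM. In Cre-negative hearts Evi2 stood at 1.91, 0 and 0 CPM in MI and 0, 3.79 and 0 CPM in sham libraries, so it was not read in most of them either. How the counting divides reads between these genes was not tested.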
